A study of Mus musculus with 2 samples.

Results

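The cells described here are hair follicle keratinocytes that carry transcripts of at least 3 of the 4 genes Gdf10, Scrg1, Nppc and Nrg1. Both libraries hold cells from the skin of wild type mice of strain C57BL/6;CD1 at postnatal day 32, in anagen, when follicles grow a new hair. Sorting had used CD34 at the cell surface and an H2BGFP reporter driven by the K14 promoter, marks by which hair follicle stem cells are collected. The promoter is active in basal keratinocytes throughout the skin. Both libraries are replicates of 1 group, so cells are compared with cells of the same library, and no genotype or treatment is compared. Nothing in the labels says that the libraries came from separate animals, so the spread between them may be technical.

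Members were chosen by their own transcript counts. A barcode entered with 1000 or more genes detected and no more than 10% mitochondrial transcripts. Kept cells with at least 2 unique molecular identifiers (UMIs, each 1 captured transcript) of Krt5 and Krt14 together were taken as keratinocytes. Of these, members had at least 1 UMI of 3 or more of the 4 genes. They also had UMIs of at most 1 of Krt24, Tgm5, Grem1, Chat and Myoc, which mark a bulge state. There were 209 members among 6828 keratinocytes and 6959 kept cells, from 11672 barcodes. The share was 3.38% in replicate 1, with 130 members of 3841 keratinocytes and an exact 95% interval from 2.84 to 4.01. It was 2.64% in replicate 2, with 79 of 2987 and an interval from 2.10 to 3.29. The rule sets these shares, so they carry no test. The other 3711 and 2908 keratinocytes served for comparison.

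The 4 genes encode signals and a small secreted protein. Gdf10, also called BMP3B, is a ligand of the TGF-beta superfamily, and Nppc encodes C-type natriuretic peptide, which acts through the receptor guanylyl cyclase Npr2. Nrg1 encodes neuregulin, a ligand of the ErbB3 and ErbB4 receptors, and Scrg1 encodes a small secreted protein first described in scrapie-infected brain and in cartilage formation. In the hair follicle, stem cells rest in the bulge and the outer root sheath grows down from it in anagen, with BMP, WNT, FGF and EGF family signals exchanged between these cells and their surroundings.

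In GRCm38 with the GENCODE M21 gene models, Gdf10 lies on chromosome 14 from 33923587 to 33937983 on the plus strand, and Nppc on chromosome 1 from 86666291 to 86670571 on the minus strand. Scrg1 lies on chromosome 8 from 57455923 to 57477585 on the plus strand, and Nrg1 on the same chromosome from 31814551 to 32884029 on the minus strand. The 250 bases before the RefSeq start sites of Gdf10 and Nppc, and of Gnmt, the gene with the lowest adjusted p among those named as higher, are shown because the account below turns on these 3 genes. Sequences are from RefSeq on GRCm38.p6, 5′ to 3′ on the gene's strand, with a TATAAA motif in capitals.
Nppc, chr1:86670574-86670823, minus strand: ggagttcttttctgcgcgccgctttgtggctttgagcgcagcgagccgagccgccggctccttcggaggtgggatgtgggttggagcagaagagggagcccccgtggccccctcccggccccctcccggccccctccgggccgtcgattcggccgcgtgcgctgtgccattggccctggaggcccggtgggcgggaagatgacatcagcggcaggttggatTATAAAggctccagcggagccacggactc
Gdf10, chr14:33923337-33923586, plus strand: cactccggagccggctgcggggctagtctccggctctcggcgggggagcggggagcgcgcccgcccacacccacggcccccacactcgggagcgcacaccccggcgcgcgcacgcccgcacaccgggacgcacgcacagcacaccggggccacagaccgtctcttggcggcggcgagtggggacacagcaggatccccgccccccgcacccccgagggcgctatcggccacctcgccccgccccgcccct
Gnmt, chr17:46729166-46729415, minus strand: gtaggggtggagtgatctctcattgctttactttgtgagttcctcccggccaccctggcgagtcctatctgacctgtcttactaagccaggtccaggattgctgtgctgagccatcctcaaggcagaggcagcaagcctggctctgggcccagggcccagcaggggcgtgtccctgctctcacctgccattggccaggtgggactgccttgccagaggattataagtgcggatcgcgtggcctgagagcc
TATAAA on either strand occurred once among them, in Nppc, starting at position -29 from the start site, and was present in 13.0% of 27025 promoter windows of this length. Neither TGANTCA, the motif of AP-1 factors, nor TGACGTCA, the cyclic AMP response motif, was found in these windows. They occurred in 6.87% and 1.62% of all windows. G and C made up 69.2% of the Nppc window, 78.8% of the Gdf10 window and 60.4% of the Gnmt window.

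Among members, the 4 genes were unequally represented. Scrg1 had a UMI in 97.7% of members in replicate 1 and in 97.5% in replicate 2, and Nppc in 95.4% and 92.4%. Nrg1 was detected in 89.2% and 69.6%, and Gdf10 in 33.1% (95% interval 25.1 to 41.9) and 57.0% (45.3 to 68.1). The gene most often missing from a member was thus Gdf10: 87 of 130 members of replicate 1 and 34 of 79 of replicate 2 had the other 3 and no Gdf10 UMI. All 4 genes were detected in 20 and 13 cells, and 3 in 110 and 66. Just outside the rule lay 322 and 216 cells with 2 of the 4 genes, and the exclusion genes removed 1 further cell in each library.

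Levels are given as CPM, the UMIs of a gene in all cells of a class per 1000000 UMIs of that class. Nppc reached 466 and 562 CPM in members against 38.3 and 39.2 in the other keratinocytes. Scrg1 reached 216 and 231 CPM against 28.1 and 29.7, Nrg1 270 and 153 against 35.6 and 10.4, and Gdf10 48.3 and 116 against 1.43 and 3.16. These 4 genes chose the cells, so their levels describe the members and support nothing. In the 77 and 54 kept cells below the keratin minimum, where Col1a1, a fibroblast collagen, was detected in 68.8% and 59.3%, Gdf10 had a UMI in 9.09% and 9.26%, Nppc in 7.79% and 3.70%, Nrg1 in 1 of 77 and 0 of 54, and Scrg1 in 0 of 77 and 0 of 54. A count of 0 allows a share of up to 3.90% of 77 and 5.56% of 54 cells. In the other keratinocytes Nppc had a UMI in 13.8% and 14.2%, Nrg1 in 14.1% and 5.81%, and Scrg1 in 14.9% and 16.1%. Median depth was 10636 and 11955 UMIs in those cells, and 11529 and 10687 in members. Gdf10 had a UMI in 0.943% and 1.96% of the other keratinocytes, below its share in the cells under the keratin minimum. Most of those low-keratin cells carried Col1a1, so they are no measure of free RNA. Whether the other keratinocytes express Gdf10 was not tested. After each cell was thinned to 5000 UMIs, Gdf10 was detected in 20.9% and 37.3% of members.

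**Figure D1:**
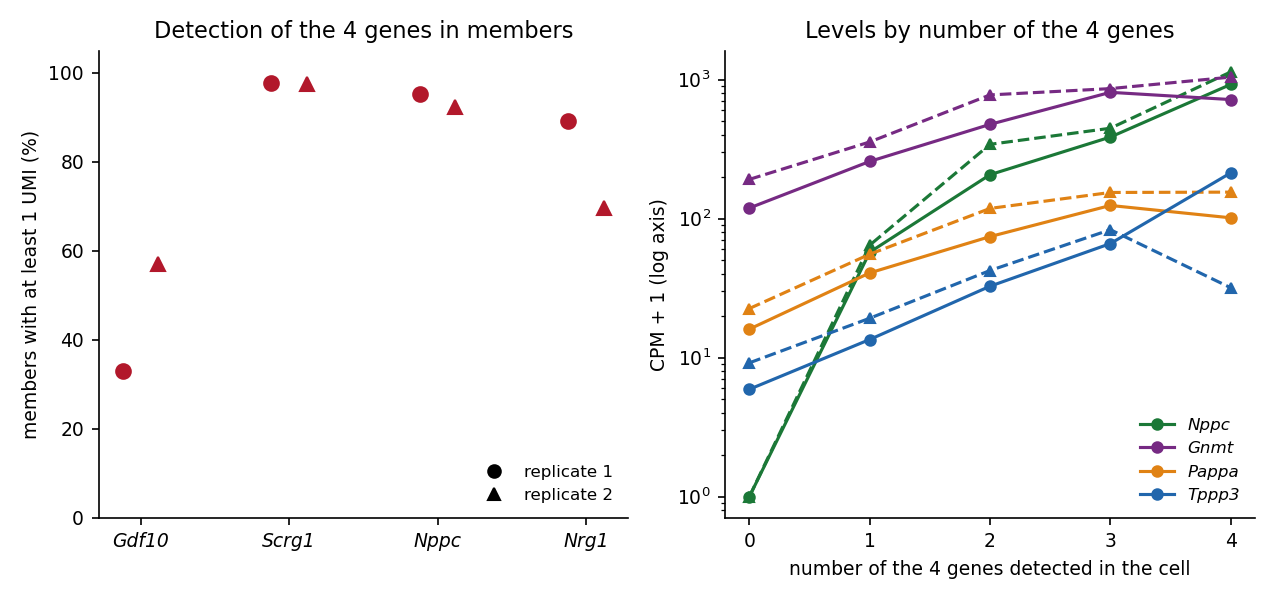
Left, share of members with at least 1 UMI of each of the 4 genes, in percent, for replicate 1 (circles) and replicate 2 (triangles). Right, level in CPM plus 1 on a log axis of Nppc, a gene of the rule, and of Gnmt, Pappa and Tppp3, which are not, against the number of the 4 genes detected in a cell (solid, replicate 1; dashed, replicate 2). Gnmt stood at 118 and 191 CPM in cells with none of the 4 genes, at 810 and 861 CPM in cells with 3 and at 718 and 1042 CPM in cells with 4. Tppp3 in replicate 2 was at 82.2 CPM with 3 genes and 30.8 CPM with 4.

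Depth, mitochondrial share and markers of other cells bear on every comparison below. Members held a median of 11529 and 10687 UMIs per cell against 9895 and 9733 in the other keratinocytes, and a median of 6.03% and 4.17% mitochondrial UMIs against 6.07% and 4.43%. The libraries share 11 barcodes, 3 of them in kept cells and 0 in members. Fibroblast markers summed to 16.3 and 7.26 CPM in members and to 217 and 256 CPM in the others, with Pdgfra, Lum and Dpt at 0 UMIs in members. Of the immune markers, Ptprc, H2-Aa, Lyz2, Cd207, C1qa and Trdc were at 0 in members, and so were Cdh5, Kdr, Cldn5 and Emcn of the endothelial markers. The remaining endothelial markers were Flt1, with 1 UMI in members, and Pecam1, detected in 10.8% and 3.80% of members and in 10.8% and 4.26% of the others. The endothelial list summed to 9.90 and 5.18 CPM in members against 15.9 and 5.59. Cd34, whose protein was sorted for, was detected in 58.5% and 60.8% of members and in 45.7% and 46.4% of the others, and in 34.1% and 42.7% against 29.7% and 32.3% after thinning.

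Compared with the other keratinocytes, members expressed more of the glycine methyltransferase Gnmt, of the hemidesmosome collagen Col17a1, of the transcription factor Klf4 and of the EGF family ligand Hbegf, and less of the contractile genes Acta2 and Tagln and of genes of DNA replication and mitosis. UMIs were summed per library and class, and the 4 sums were fitted with edgeR's quasi-likelihood test with the library as a term. The 11 genes of the rule and the mitochondrial genes were not tested. Of 13155 genes tested, 719 were higher in members (5.47% of those tested) and 698 lower (5.31%) at an adjusted p under 0.05. A log2 fold change of at least 1 in size was seen for 273 of the higher and 387 of the lower genes. Of the 1417 called genes, 1409 had the same direction in both libraries. The fit has 1 residual degree of freedom. Without the library term, 35 were called higher and 50 lower, and DESeq2 on the same sums called 386 and 275.

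The 12 genes with the largest fold changes were at low to moderate levels, and apart from Pappa and Pdlim4 each was detected in at most 43.0% of members of either library. Pcp4, which encodes a small calmodulin-binding protein, stood at 35.5 and 35.2 CPM in members and 2.89 and 3.65 CPM in the others, a log2 fold change of 3.56 ± 0.28 (SE; edgeR, adjusted p = 8.88e-06). It was detected in 16.9% and 17.7% of members. Tppp3, a tubulin polymerization-promoting protein, reached 87.3 and 73.6 CPM against 10.3 and 12.6. Pappa, a secreted protease that cleaves insulin-like growth factor binding proteins, reached 120 and 153 CPM against 27.6 and 35.8, and was found in 67.7% and 68.4% of members. For each of these 3 genes both member values lay above both values of the others, and the smallest of the 3 changes was that of Pappa, 2.21 ± 0.14 (log2; edgeR, adjusted p = 2.30e-06). Picking genes by fold change favours such a separation. Of all genes tested, 29.3% were higher in members than in the others of the same library, in both libraries.

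The rest of the 12 encode proteins of several kinds. Gpha2 is a glycoprotein hormone subunit (3.02 log2), Tnfrsf11b the secreted decoy receptor osteoprotegerin (2.87), and Camk4 a calcium/calmodulin-dependent kinase (2.69). P3h2, a prolyl hydroxylase of collagens, stood at 41.9 and 41.5 CPM against 5.22 and 10.1. Col7a1, the collagen of the anchoring fibrils beneath the epidermis, stood at 37.8 and 25.9 CPM against 4.42 and 14.2, and its log2 ratio was 3.17 in replicate 1 and 0.96 in replicate 2. The others were Pdzrn4 (2.98), the adhesion protein Sdk1 (2.56), the actin-associated Pdlim4 (2.50) and Itih5 (2.19). All 12 were called higher by edgeR with adjusted p from 2.30e-06 for Tppp3 and Pappa to 0.00347 for Col7a1. Camk4 at 14.6 and 27.0 CPM and Gpha2 at 12.8 and 43.5 CPM were carried by 17.7% and 16.5% and by 13.8% and 27.8% of members.

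**Figure D2:**
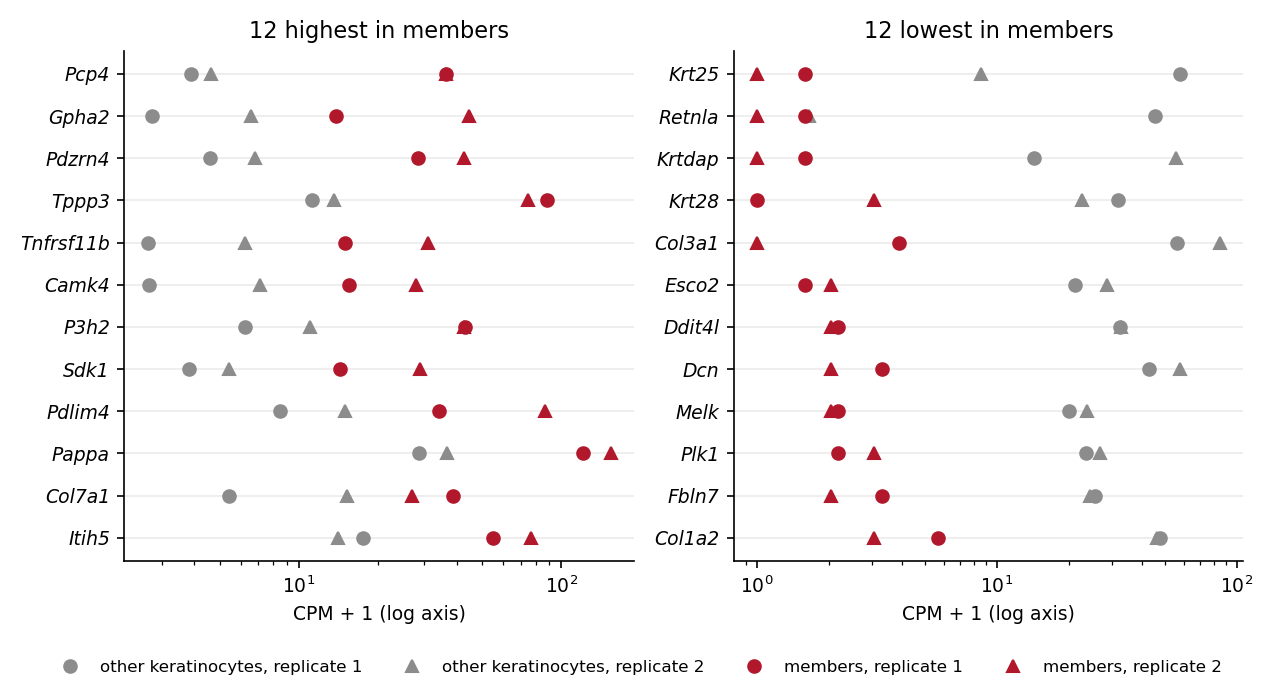
CPM plus 1 on a log axis of the 12 genes with the largest (left) and the 12 with the smallest (right) log2 fold change, in members (red) and other keratinocytes (grey), with a circle for replicate 1 and a triangle for replicate 2. In every gene on the left both member points lie to the right of both grey points, which the choice by fold change favours. Retnla on the right is high in the grey point of replicate 1 alone, at 44.6 CPM against 0.638 CPM in replicate 2.

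The 12 genes with the smallest fold changes included genes of other lineages and of dividing cells. Krt25 and Krt28, keratins of the inner root sheath, had 1 and 2 UMIs in all members, which is 93.5-fold lower (counting interval 16.8 to 3694) and 36.0-fold lower (9.94 to 297) than in the others. DESeq2 did not call Krt28 (adjusted p = 0.096). Krt25 differed between the libraries, at 87.6 and 10.2 CPM in keratinocytes with 0 of the 4 genes and at most 1 exclusion gene. Krtdap, a gene of differentiating keratinocytes, had 1 UMI in members and stood at 13.3 and 54.5 CPM in the others. Dcn, Col1a2 and Col3a1, matrix genes of fibroblasts, were also among the 12. When cells with 3 or more UMIs of fibroblast, immune or endothelial markers were left out of both classes, an alternative chosen after seeing the data, the log2 change of Dcn was 0.32, that of Col1a2 1.47 and that of Col3a1 -0.04, none of them called by edgeR (adjusted p = 0.87, 0.25 and 0.99). Esco2, Melk and Plk1, which act in sister chromatid cohesion and mitosis, had 2, 3 and 4 UMIs in all members. Ddit4l, an inhibitor of mTOR signalling, was at 1.16 and 1.04 CPM in members and 31.7 in each library of the others (log2 fold change -4.72 ± 0.42; edgeR, adjusted p = 1.98e-05). Fbln7, a fibulin of the extracellular matrix, was at 2.33 and 1.04 CPM against 24.6 and 23.5.

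Several genes that were high in absolute terms also differed. Gnmt, which uses S-adenosylmethionine to methylate glycine, stood at 796 and 891 CPM in members and 192 and 238 CPM in the others (log2 fold change 2.08 ± 0.10; edgeR, adjusted p = 2.44e-07), and was detected in 86.2% and 81.0% of members. Gnmt and Fst had led a cluster of these same libraries in earlier work, so neither is independent support. Of 22 tested genes of methionine, folate and glycine metabolism, 4 were higher, namely Gnmt, Sardh, Cbs and Mat2a, and 3 were lower, among them Tyms and Phgdh. Sardh, which returns the sarcosine made by Gnmt to glycine, was at 84.4 and 78.8 CPM against 65.3 and 56.1, and Cbs, of homocysteine removal, at 267 and 290 against 192 and 226. The median log2 change of the list was 0.08, beside -0.04 over all genes tested. Tyms makes thymidylate for DNA synthesis, and without cells carrying 3 or more cycling markers its call was lost (edgeR, adjusted p = 0.099).

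Genes that anchor basal keratinocytes to the basement membrane were among those higher in members. Col17a1 stood at 697 and 610 CPM in members and 140 and 210 CPM in the others, and was detected in 95.4% and 94.9% of members (log2 fold change 2.03 ± 0.15; edgeR, adjusted p = 7.70e-06). Of 30 tested integrin, laminin and hemidesmosome genes, 12 were higher and 1 lower, with a median of 0.51. Itga6 was at 263 and 202 CPM against 129 and 128, and its partner Itgb4 at 134 and 113 against 65.9 and 61.1. Dst and Plec, the plakins that tie hemidesmosomes to keratin filaments, and Lama3, a laminin chain of the epidermal basement membrane, were called higher, while Lamb3, another laminin chain, was not called at 56.5 and 46.6 CPM against 25.6 and 45.3. Npnt, the nephronectin of the bulge basement membrane, was at 140 and 101 CPM against 14.6 and 64.2, a log2 ratio of 3.36 in replicate 1 and 0.75 in replicate 2, and DESeq2 did not call it (adjusted p = 0.355). Nid1 had 0 UMIs in members, at least 3.31-fold lower against a floor of 3 counts over both libraries. Krt14, a partner of this system but a gene of the rule, was at 8913 and 8321 CPM in members and 4184 and 3632 CPM in the others.

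The extracellular matrix list was split. Of 30 tested secreted matrix genes and proteases, 11 were higher and 8 lower, with a median of 0.09. Col12a1 was at 250 and 237 CPM against 94.2 and 78.1, and Sparc, a collagen-binding glycoprotein, at 358 and 518 against 183 and 274. Fn1, fibronectin, was at 41.3 and 30.1 CPM against 107 and 81.5, and Fbln5, an elastic fibre protein, had 1 UMI in members against 12.8 and 17.9 CPM in the others. In Col12a1, Sparc, Fn1 and Fbln5 the member values did not overlap those of the others. Fbln5 was named for its fold change and the rest after their values were seen, which favours such a separation. The share of all tested genes that separate in this way was not counted.

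The 4 genes of the rule include ligands, and the receptors and relatives of those ligands were examined next. For C-type natriuretic peptide, Npr2 had 5 and 1 UMIs in members (2.91 and 1.04 CPM) against 0.389 and 0.334 CPM in the others and was not called (edgeR, adjusted p = 0.13). Npr1 had 1 and 0 UMIs, and Npr3, the clearance receptor, and Prkg1, a cyclic GMP-dependent kinase, had 0. Prkg2, the other such kinase, had 1 and 2 UMIs in members and stood at 6.92 and 9.60 CPM in the others. Of the 18 genes of that list, 5 were tested and Prkg2 alone was called, as lower, and DESeq2 gave it no adjusted p and called none of the others. With doublet scores removed, or in the members' depth range, Furin, a protease that cleaves peptide precursors, was called higher as well. The receptor of the peptide was therefore near the floor of detection in these cells.

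Of the EGF family, 4 of 12 tested genes were higher and 0 lower. Hbegf stood at 1281 and 1136 CPM in members against 544 and 436 CPM in the others (log2 fold change 1.41 ± 0.09; edgeR, adjusted p = 2.30e-06). Epgn, another ligand of the EGF receptor, was at 61.7 and 32.1 CPM against 23.0 and 27.7, and DESeq2 did not call it (adjusted p = 0.052). Egfr was at 133 and 120 CPM against 87.1 and 91.8, and Errfi1, its feedback inhibitor, at 204 and 110 against 91.3 and 79.9. With cycling cells left out, the log2 change of Egfr was 0.45, beside 0.61 with them, and it was not called (edgeR, adjusted p = 0.055). Erbb3, a receptor of neuregulin, was at 24.5 and 29.0 CPM in members and 30.2 and 23.1 in the others and was not called, Erbb2 was not called, and Erbb4 had 0 UMIs in members.

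Of 13 tested ligands of the BMP, GDF and activin families, 0 were called by edgeR and 0 by DESeq2, 3 were at an unadjusted p under 0.05, and Gdf10 itself, a gene of the rule, was not tested. Of 11 tested antagonists of BMP and activin, 6 were higher and 0 lower, with a median of 0.71, and DESeq2 called 4 higher. Fst, follistatin, which binds activin, was at 816 and 277 CPM in members against 196 and 230 in the others (log2 fold change 1.32 ± 0.28; edgeR, adjusted p = 0.00941). A single cell of replicate 2 held 40.4% of the Fst UMIs of its members, and the log2 ratio was 2.16 in replicate 1 and 0.36 in replicate 2. DESeq2 did not call Fst (adjusted p = 0.505). Sostdc1, an inhibitor of BMP and WNT signals, was at 306 and 469 CPM against 103 and 337. Smad7, an inhibitory Smad, was at 154 and 106 against 92.3 and 77.0, and Smad6, its relative, at 23.9 and 5.18 against 6.56 and 5.80, with a log2 ratio of -0.06 in replicate 2. Of 10 BMP target genes tested, Id4 was higher and Msx2 lower. The Msx2 call was lost under DESeq2 (adjusted p = 0.12) and under 5 of the edgeR alternatives besides the fit without the library term, with adjusted p from 0.051 to 0.56.

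Of 29 WNT genes tested, 4 were higher and 2 lower. Rspo1, an enhancer of WNT signals, was at 23.3 and 19.7 CPM against 9.01 and 7.50, and the ligand Wnt10a at 25.6 and 38.4 against 9.45 and 17.2. The receptor Fzd1 was at 38.4 and 28.0 CPM against 93.3 and 73.4. Of 18 FGF genes, 4 were higher and 5 lower. Fgf5, the signal that ends anagen, was at 6.99 and 5.18 CPM in members against 46.1 and 49.1 in the others (log2 fold change -2.81 ± 0.27; edgeR, adjusted p = 3.44e-05), and the FGF response genes Etv4 and Etv5 were also lower, though DESeq2 did not call Etv5 (adjusted p = 0.25). Of 11 hedgehog genes, the co-receptors Cdon, Gas1 and Boc and the factor Gli3 were higher and 0 were lower, and DESeq2 kept the call of Gas1 among those 4 genes (adjusted p = 0.067 for Cdon, 0.12 for Gli3 and 0.23 for Boc). Gas1 was at 269 and 371 CPM against 126 and 222. With cycling cells left out, 3 of 10 tested hedgehog genes were higher and 2 lower.

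Among signals to nerves, vessels and melanocytes, 5 of 27 tested were higher and 2 lower. Kitl, the ligand of Kit on melanocytes, was at 56.5 and 37.3 CPM against 12.6 and 31.5, a log2 ratio of 2.25 and 0.34. Sema3f, a repellent axon guidance cue, was at 51.8 and 49.8 CPM against 32.4 and 17.3. Of the melanocyte markers themselves, Dct, Tyrp1 and Pmel were called higher of 5 tested. A single cell of replicate 1 held 50.6% of the Dct UMIs of its members and a single cell of replicate 2 63.6%, Tyrp1 was at 0 in replicate 2, and each gene was found in at most 5.38% of members. Without replicate 1 the log2 ratio of Tyrp1 was -1.73, those of Dct and Pmel were 0.76 and 0.29, and the part of such cells in the Kitl and Sema3f values was not tested.

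**Figure D3:**
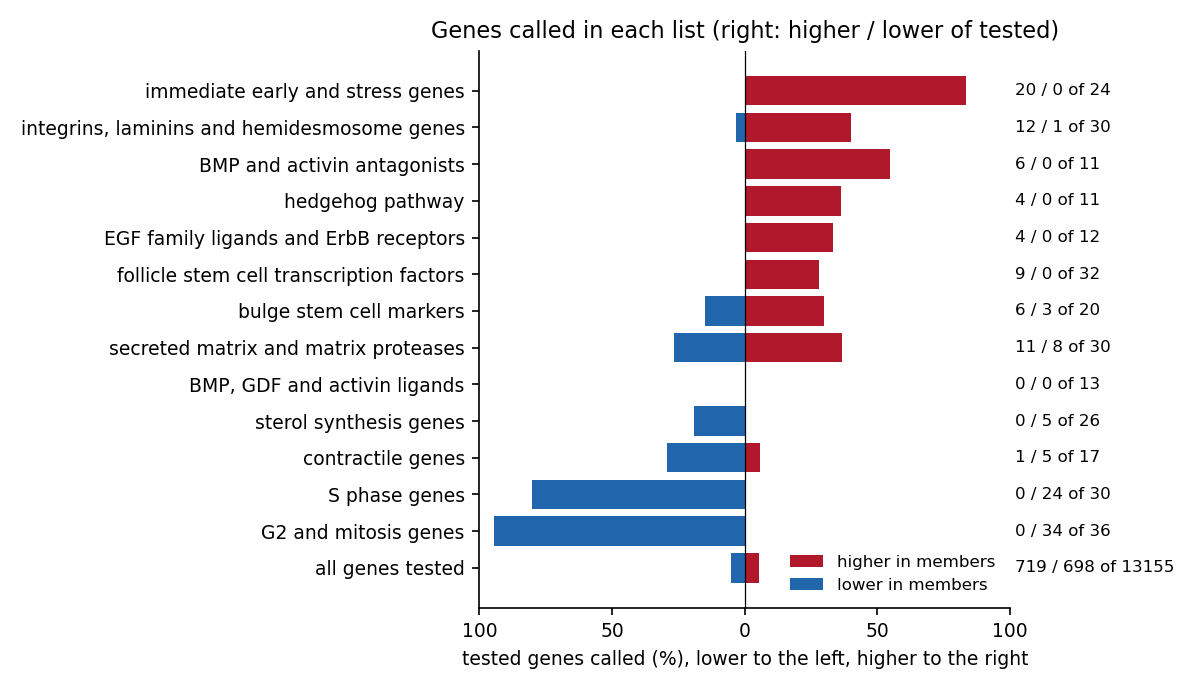
Share of the tested genes of each list called higher (red, right) and lower (blue, left) in members by edgeR at an adjusted p under 0.05, with the counts at the right and all genes tested in the bottom bar. The immediate early list stands at 20 higher of 24 and the list of G2 and mitosis genes at 34 lower of 36.

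Transcripts of DNA replication and mitosis were lower in members. At least 3 of 12 cycling markers were detected in 13.8% of members in replicate 1, with a 95% interval from 8.42 to 21.0, and in 17.7% in replicate 2, from 10.0 to 27.9, against 35.4% (33.9 to 37.0) and 34.4% (32.7 to 36.2) of the others. After thinning, the shares were 6.20% and 9.33% against 27.4% and 27.2%. Of 36 G2 and mitosis genes 34 were lower and 0 higher, and of 30 S phase genes 24 were lower and 0 higher, with medians of -1.84 and -1.15. Top2a, the topoisomerase of dividing cells, was at 37.8 and 53.9 CPM in members against 122 and 172, and Mcm5, of the replicative helicase, at 11.1 and 18.7 against 43.2 and 65.0. With cells of at least 3 cycling markers left out of both classes, 1 of 27 tested G2 and mitosis genes was lower and 1 higher, and 5 of 30 S phase genes were lower. Among genes of cell cycle exit, Cdkn1a, the p21 inhibitor, was at 288 and 181 CPM against 155 and 118, while Cdkn2b, Cdkn2c and Rbl1 were lower. That list counted 6 higher and 3 lower of 19, and 4 and 0 with cycling cells left out, where the log2 changes of Cdkn2c and Rbl1 were -0.56 and -0.63 and that of Cdkn2b was -1.74 (edgeR, adjusted p = 0.44, 0.52 and 0.059). DESeq2 called none of these 3 as lower (adjusted p = 0.053 for Cdkn2c, 0.28 for Rbl1 and 0.39 for Cdkn2b).

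Immediate early and stress genes were higher in members. Of 24 tested, 20 were higher and 0 lower, with a median of 0.58, and 20 of 24 were higher with cycling cells left out. Fosl1, an AP-1 subunit, was at 154 and 79.8 CPM against 43.8 and 36.1, and Myc at 104 and 52.9 against 46.1 and 25.9. Hspb1, a small heat shock protein, was at 2704 and 2735 CPM against 1465 and 1417 (log2 fold change 1.02 ± 0.08; edgeR, adjusted p = 8.88e-06). These genes are known to respond to tissue dissociation. Their part in the other results was not tested.

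Of 32 tested transcription factors of follicle stem cells, 9 were higher and 0 lower. Klf4, a factor of epidermal differentiation, was at 1306 and 1015 CPM against 395 and 456 (log2 fold change 1.54 ± 0.12; edgeR, adjusted p = 8.88e-06). Nfix was at 409 and 571 CPM against 263 and 380, and Sox9 at 827 and 455 against 740 and 376. Lhx2 and Tbx1 were not called, at 227 and 209 CPM against 181 and 210 for Lhx2 and 176 and 191 against 195 and 209 for Tbx1. Of 20 bulge markers, 6 were higher, among them Col17a1, Itga6 and Aqp3, and 3 were lower. Krt15, a keratin of bulge cells, was among the lower ones, at 2606 and 3220 CPM against 3252 and 5779. Lgr5, at 119 and 132 against 102 and 126, was not called. Of 16 outer root sheath markers, 7 were higher and 5 lower. Contractile genes counted 5 lower and 1 higher of 17, with Acta2, smooth muscle actin, at 66.9 and 92.3 CPM against 714 and 542 (log2 fold change -2.91 ± 0.17; edgeR, adjusted p = 1.41e-06) and Tagln at 257 and 317 against 1503 and 1500. Foxe1, a forkhead factor, was at 46.0 and 37.3 CPM against 149 and 137.

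Metabolic genes were examined by 3 further lists. Of 26 sterol synthesis genes, 5 were lower and 0 higher, with Cyp51 at 19.2 and 27.0 CPM against 51.9 and 49.5. Of 23 glycolysis and hypoxia genes, 4 were higher and 4 lower, and Egln3, a hypoxia-induced prolyl hydroxylase, was at 10.5 and 4.15 CPM against 43.6 and 25.2. Among insulin-like growth factor genes, 3 of 13 were higher and 3 lower: Igfbp7 was at 279 and 271 CPM against 670 and 770 (log2 fold change -1.28 ± 0.10; edgeR, adjusted p = 1.02e-05), and Igfbp3 at 99.5 and 57.0 against 22.1 and 42.1.

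Members were then set beside 3 other gates of keratinocytes: cells with at least 3 of Krt24, Tgm5, Grem1, Chat and Myoc, cells with at least 2 of Edn2, Dio3 and Cpxm1, and cells with both Fgf5 and Fbln5. Cells in more than 1 gate were left out, which left 119 and 70 members. The first gate held 8 cells of replicate 1 and 186 of replicate 2, so its values for replicate 1 rest on 61498 UMIs. The second held 1031 and 745 cells and the third 95 and 118. Of 9497 genes tested in 1 fit of the 8 sums, 1169 were higher (12.3%) and 576 lower (6.07%) in members against the first gate, 1370 (14.4%) and 1002 (10.6%) against the second, and 1598 (16.8%) and 1078 (11.4%) against the third.

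Of the 9497 genes tested across these gates, 331 were higher in members than in every gate and than in all other keratinocytes, and 139 were lower. Of the 12 genes with the largest changes above, 8 were higher against all 3 gates, beside 454 of all 9497 genes. The 12 had been chosen against other keratinocytes, a class that holds the cells of these gates, so the 8 are not independent support. Pappa was at 122 and 149 CPM in members, 0 and 8.93 in the Krt24 gate, 23.6 and 39.9 in the Edn2 gate and 1.65 and 4.80 in the Fgf5 gate. Tppp3 was at 98.9 and 84.3 CPM, against 16.3 and 17.3, 3.19 and 2.46, and 0.826 and 2.06 in the same order. The other 4, Camk4, Col7a1, Pdzrn4 and Tnfrsf11b, were not called against the Krt24 gate: Col7a1 stood at 39.0 and 29.3 CPM in members and 32.5 and 65.3 there, and Pdzrn4 at 30.3 and 44.0 and 65.0 and 22.3. Against the other 2 gates all 4 were higher.

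**Figure D4:**
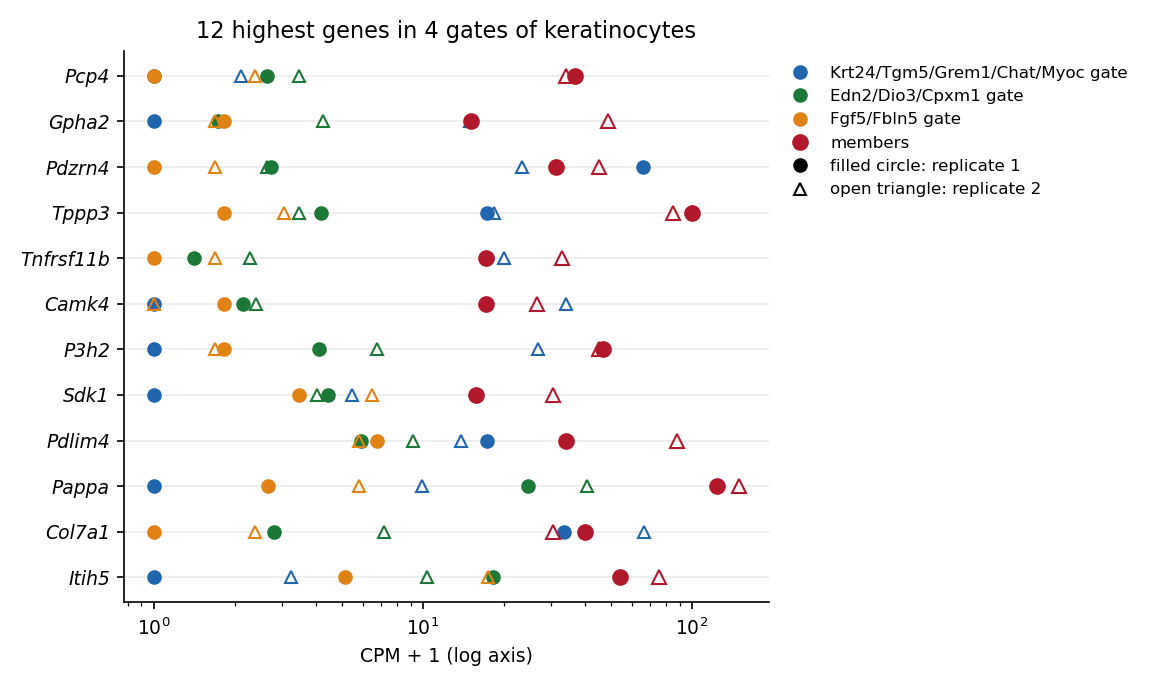
CPM plus 1 on a log axis of the 12 genes with the largest fold change against other keratinocytes, in members (red) and in 3 other gates of keratinocytes, with filled circles for replicate 1 and open triangles for replicate 2. The members' points lie to the right of the Edn2 and Fgf5 gates in all 12 genes, while the points of the Krt24 gate overlap those of the members in Camk4, Col7a1, Pdzrn4 and Tnfrsf11b.

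Each gate differed from members in its own genes. Serpinb11 was at 0 UMIs in members and 81.3 and 86.0 CPM in the Krt24 gate, and Wif1, a WNT inhibitor of the bulge, at 1.35 and 1.22 CPM against 81.3 and 38.5. Foxe1, at 30.3 and 28.1 CPM in members, was at 0 and 0.558 in that gate (log2 difference 5.85 ± 0.73; edgeR, adjusted p = 7.65e-09). Aqp3, an aquaporin, was at 64.6 and 121 CPM in members against 3.60 and 6.08 in the Edn2 gate (4.40 ± 0.25; edgeR, adjusted p = 4.28e-21). Npnt was at 146 and 100 CPM in members against 0.826 and 0 in the Fgf5 gate, and Sox5, a transcription factor, was at 0 in those members and 24.8 and 57.6 CPM there. Bulge markers counted 0 higher and 9 lower of 18 in members against the Krt24 gate, 8 and 2 against the Edn2 gate and 10 and 4 against the Fgf5 gate. Contractile genes counted 10 higher and 0 lower of 14 against the Krt24 gate, 1 and 8 against the Edn2 gate and 2 and 7 against the Fgf5 gate. Immediate early genes counted 16 higher and 1 lower of 24 against the Krt24 gate, 18 and 0 against the Edn2 gate and 19 and 0 against the Fgf5 gate.

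Because Gdf10 was the gene most often missing, members with and without a Gdf10 UMI were set side by side, a split chosen after the values were seen and given with no test. There were 43 with and 87 without in replicate 1, and 45 and 34 in replicate 2. By the rule, every member without Gdf10 carried the other 3 genes, while 14 and 24 of those with it lacked Nrg1. The classes therefore differ in more than Gdf10. Those with Gdf10 were shallower, at a median of 10082 and 9430 UMIs against 12364 and 12234.5. Of 5518 genes at 20 CPM or more in either class, 21 were at least 2-fold higher with Gdf10 in both libraries and 21 at least 2-fold lower, on CPM plus 10, and 6 passed that size in opposite directions. The 12 genes with the largest fold changes above had been picked from these same members. Of these 12, 10 were higher with Gdf10 in both libraries, 4 of them at least 2-fold. Of all 5518 genes, 1431 were higher with Gdf10 in both libraries, which is 25.9%.

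With Gdf10, Tppp3 was at 203 and 120 CPM and without it at 40.1 and 21.8. Capns2, a calpain subunit, was at 441 and 671 CPM against 118 and 135, Aqp3 at 119 and 168 against 30.3 and 43.7, and Htra1, a secreted protease, at 48.3 and 101 against 4.92 and 13.1. Col17a1 was at 1207 and 754 CPM against 489 and 450. Without Gdf10, Ccl2, a chemokine that attracts monocytes, was at 278 and 153 CPM and with it at 52.3 and 29.6. Edn2 was at 86.0 and 52.4 CPM without Gdf10 against 20.1 and 17.8 with it, Cpxm1 at 31.1 and 58.9 against 6.03 and 13.8, and Igfbp7 at 339 and 408 against 133 and 146. In the other keratinocytes Igfbp7 was at 670 and 770 CPM, so the members without Gdf10 stood nearer to them in this gene. Cycling markers numbered 3 or more in 16.1% and 26.5% of members without Gdf10 and in 9.30% and 11.1% of those with it. These shares rest on 14 and 9 cells without Gdf10 and on 4 and 5 with it. They were not taken at a common depth, and the members with Gdf10 were shallower. Gnmt differed little, at 712 and 969 CPM with Gdf10 against 830 and 805 without. Fst ran in opposite directions in the libraries, at 1507 and 174 CPM against 534 and 391. In replicate 2 its UMIs numbered 88 with Gdf10 and 179 without. The single cell described above, which held a large part of them, was by these counts among the members without Gdf10. Whether the opposite direction rests on that cell was not tested.

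**Figure D5:**
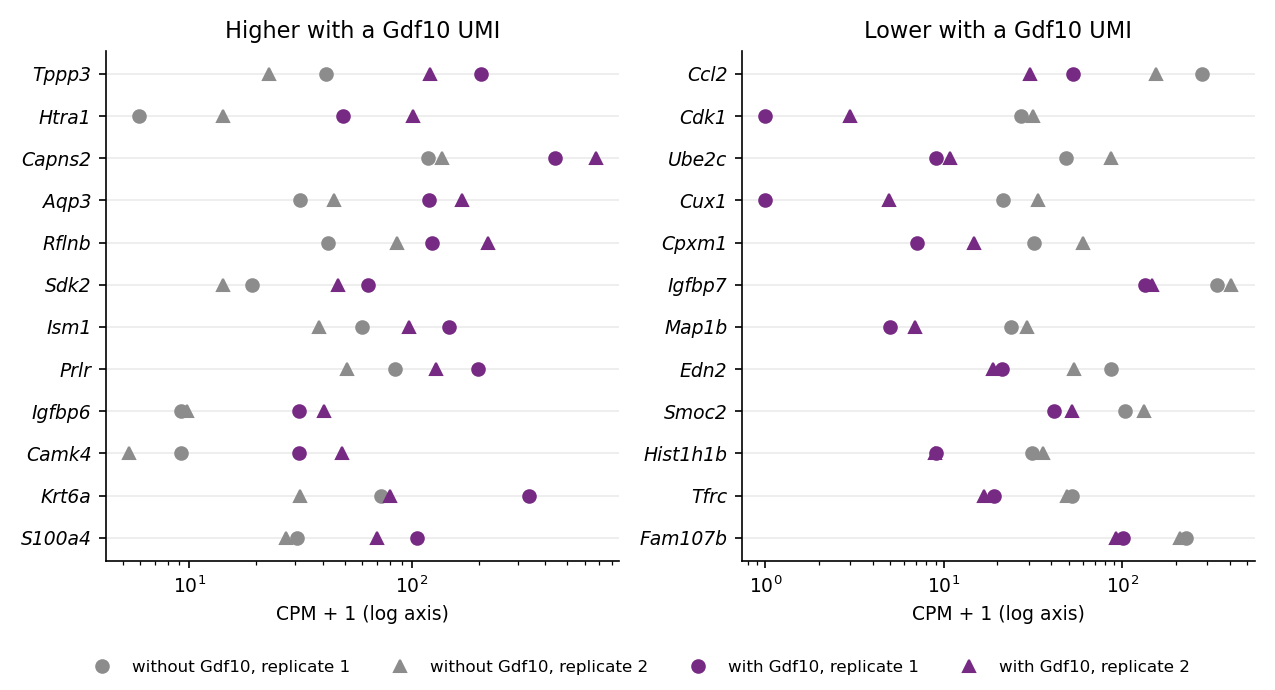
CPM plus 1 on a log axis in members with (purple) and without (grey) a Gdf10 UMI, with circles for replicate 1 and triangles for replicate 2, of the 12 genes with the largest difference in either direction, ranked by the library in which the difference was smaller. Tppp3 was at 203 and 120 CPM with Gdf10 against 40.1 and 21.8 CPM without it.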

How the data were processed

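UMI counts were deposited by the authors as 1 filtered gene-by-barcode matrix per library, whole numbers with no normalization, per the file headers. Reads had been processed with Cell Ranger 3.1.0 on mm10, per the submitters' processing notes, which also name Seurat 3.1. Libraries were made with the Chromium 3′ kit, version 3, per the labels. Replicate 1 holds 52344178 UMIs in 6592 barcodes and replicate 2 38678103 in 5080, where the gene minimum removed 1587 and 1543 barcodes and the mitochondrial limit a further 1087 and 496. Free RNA was not removed.

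Members and gene lists were chosen with earlier results of these data known. UMIs were summed per class and library and fitted with edgeR 4.0.16 in R 4.3.3 (quasi-likelihood test, two-sided, TMM, edgeR's expression filter, a library term, Benjamini-Hochberg adjustment over all genes tested), checked on simulated data. The library term is used because both classes of a library come from the same preparation. Each SE printed after an edgeR log2 change is the size of that change divided by the square root of the test's F statistic. It is not the spread between the libraries. DESeq2 1.42.0 was an alternative. Named genes are the 12 with the largest and 12 with the smallest log2 fold change among genes called with the same direction in both libraries and at least 20 CPM in the higher class, up to 4 called genes of each list, and 4 in each direction per gate. Other list genes named were picked from the same lists after their values were seen, to show how a list divided. Intervals are exact Clopper-Pearson intervals and, like the floor of 3 counts, cover counting error only. Scrublet, as in scanpy 1.11.5, called 2 and 7 doublets by its automatic threshold, which had not worked, so the highest-scoring 255 and 139 cells were removed as an alternative. Gene positions are from GENCODE M21. A few genes of the lists are not reported here by name.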

Additional observations from a re-analysis of the deposited data

How the results depend on the processing

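DESeq2 called 386 genes higher and 275 lower in members against other keratinocytes, and 661 of the 1417 genes called by edgeR were called by both. Against the Krt24, Edn2 and Fgf5 gates it called 668 and 244, 702 and 513, and 988 and 697. With no replicate block, that is without the library term, the counts were 35 and 50 against other keratinocytes, and 728 and 291, 618 and 400, and 991 and 576 against the gates. Requiring all 4 genes left 0.478% of keratinocytes as members and 305 genes higher and 403 lower. Leaving out cycling cells gave 648 higher and 409 lower of 12039 tested, with 885 called genes shared. The counts stayed within 1.5 times under the other alternatives run. Leaving out 1 library leaves no residual degrees of freedom, so it gives values with no test: the share of members was 2.64% to 3.38%.

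Of 139 named genes called, 65 kept direction and call in every refit they were in, DESeq2 and the fit without the library term aside. Log2 changes turned sign with 1 library left out, ranging from -0.064 to 1.95 for Smad6, -0.29 to 1.61 for Krt16, -1.73 to 3.15 for Tyrp1 and -2.35 to 0.35 for Krt71, with the sign opposite to the fit of both libraries when replicate 1 was left out. They also turned in the members' depth range for Krt71 (0.48), with all 4 genes required for Dct (-0.85) and Pmel (-9.22), and without cells carrying markers of other types for Dcn (0.32), Col1a2 (1.47) and Cd74 (0.82). The cause was not tested. A mitochondrial limit of 5% left 34 of 130 members in replicate 1 and 56 of 79 in replicate 2. Members hold 1717755 and 964724 UMIs in all, which limits the precision of low genes.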

Other observations

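A few genes differed widely between the libraries within members. Slpi, a secreted protease inhibitor, stood at 222 CPM in members of replicate 1 and 8.29 CPM in those of replicate 2, and at 193 and 38.9 CPM in the other keratinocytes. Krt16, a keratin of the companion layer and of stressed epidermis, stood at 222 and 29.0 CPM in members. Plet1, a marker of the upper follicle, stood at 416 and 121 CPM in members against 254 and 103 CPM in the others, while Defb6, another, had 1 and 2 UMIs in members. Foxe1 and Ggt1 were lower in members than in all other keratinocytes and higher than in the Krt24 gate, with Ggt1 at 24.2 and 19.6 CPM against 0 in both libraries of that gate. In replicate 1 that gate has 8 cells and 61498 UMIs, too few for the 0 there to say much.

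Doublet scores were highest in 6.15% and 8.86% of members against 5.47% and 4.13% of the others. Without those cells, 23 of 30 S phase genes and 34 of 36 G2 and mitosis genes were lower and 21 of 24 immediate early genes higher in members. Of all 12998 genes tested in that fit, 758 were higher and 734 lower.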
